A study of Mus musculus with 12 samples.

Results

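The mitoribosome is the ribosome inside mitochondria. Its proteins are encoded by nuclear genes, made in the cytosol and imported, and they assemble on ribosomal RNAs that come from the mitochondrial chromosome. It translates the small set of respiratory chain and ATP synthase subunits that this chromosome encodes. Some of its proteins have a counterpart in bacterial ribosomes, and others are known from mitochondria alone. Tetracyclines such as doxycycline (Dox) bind the small subunit of bacterial ribosomes and can also inhibit mitochondrial translation, and Dox is the agent used to switch on Xist in the cells described here. Mitochondrial ribosomal protein genes were taken as the genes on chromosomes 1 to 19 whose symbol is Mrpl or Mrps followed by a number. There were 77 such genes among the 22556 counted. Of the 77, 50 encode proteins of the large subunit and 26 encode proteins of the small subunit. Mrps30 and Mrps18a were placed with the large subunit, where their proteins sit despite the symbols. Mrps36, whose product is a part of the alpha-ketoglutarate dehydrogenase complex, was kept apart.

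The cells were iXist-ChrX mESCs, a female embryonic stem cell line of 129S X Cast background in which a TetOn promoter stands in place of the endogenous Xist promoter on the 129S allele and the rtTA activator is expressed from the TIGRE locus. The groups were WT without Dox (0 h) and with Dox (24 h), with 1 library each, XistΔA without and with Dox, with 3 libraries each from the clones C1, 2C2 and C11, and XistΔm6A/11C without and with Dox, with 2 replicates each of 1 clone. XistΔA lacks the A-repeat of Xist and XistΔm6A/11C lacks its 5′ m6A region. Dox was given at 1.0 to 1.5 µg/mL for 24 h. The cells were grown with mitomycin-inactivated mouse fibroblasts as feeders and pre-plated before RNA was taken. Each of the 12 libraries holds chromatin-associated RNA (ChrRNA-seq), counted over whole gene spans with introns, so that the values follow mostly unspliced and nascent RNA and not the mature mRNA or the protein. The question was whether the members, as a group or singly, differed between Dox and no Dox within the 6 pairs of libraries that share a clone or a replicate number. Dox also induced Xist in every line, so that Dox itself and Xist induction cannot be told apart. There was no line without the inducible Xist. In bulk RNA, fewer cells of a kind and less RNA per cell cannot be told apart either. Genes of the mitochondrial chromosome are not analysed here.

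Library totals ran from 18893447 to 36007145 counts, and the counts on the 77 members summed to 33536 in the lowest library, 46993 at the median and 71416 in the highest. Xist gave a check of the labels. Without Dox it was at 86.6 CPM (counts scaled to the TMM-adjusted library total) in the lowest library, 129 at the median and 302 in the highest, and with Dox at 1269, 2201 and 5458. The groups did not overlap, and Xist was higher with Dox in 6 of 6 pairs. The fitted log2 fold change was 4.16 (SE 0.263, adjusted p = 8.54e-08 by edgeR). In the library with the lowest share, 98.2% of the allelic counts of Xist came from the 129S allele (95% Wilson interval 97.2 to 98.8%). The 129S genome was taken to be the one from which Xist is read, so this share does not check which genome is which. The 4 XistΔm6A/11C libraries stood apart from the other 8 in another RNA. Rmrp, the RNA of RNase MRP, was at 3738 to 8197 CPM in them and at 502 to 961 CPM in the others. Any difference between XistΔm6A/11C and the other lines is therefore also a difference between these sets of libraries. The labels name no batch of preparation, and line and preparation cannot be told apart.

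All 77 members passed the filter on low counts. Their gene spans ran from 0.826 to 121.713 kb with a median of 7.307 kb, where the median of the 14929 genes tested was 24.584 kb. Per kilobase of gene span, the median member stood at 1.90 CPM per kb and the median of all genes tested at 0.758 CPM per kb. The members differed among themselves by 24.2-fold on this scale. The highest were Mrpl24 at 6.36 CPM per kb and Mrps2 at 6.19 CPM per kb, both with bacterial counterparts, and Mrps30 at 5.26 CPM per kb. The lowest were Mrps23 at 0.390 CPM per kb, Mrps33 at 0.296 CPM per kb and Mrpl14 at 0.263 CPM per kb. In the files' annotation Mrps23 shares 36 bases with Cuedc1 on the same strand, and reads in such stretches were not counted. Its span in the files also starts 10283 bases before its RefSeq start, and its place among the lowest depends on that gene model. The large and small subunits lay at nearly the same level, with medians of 1.88 and 1.93 CPM per kb. Within the large subunit, the 30 members with a bacterial counterpart had a median of 2.06 CPM per kb and the 20 without had 1.64 CPM per kb, with ranges that overlapped almost wholly. These levels per kb describe unspliced RNA and depend on where each gene model ends.

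**Figure D1:**
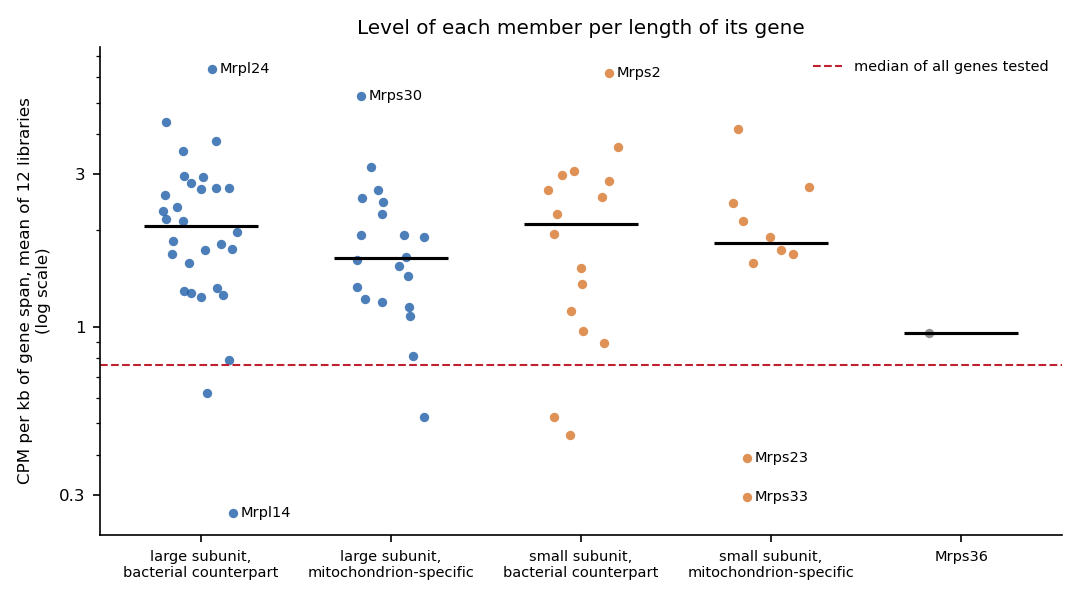
Mean level over 12 libraries of each of the 77 members, as CPM per kb of gene span on a log axis, by subunit and by whether the protein has a bacterial counterpart. Points are genes, black lines are medians of each class and the dashed line is the median of all genes tested, 0.758 CPM per kb. Most members lie above that line, and Mrpl14, Mrps33 and Mrps23 are the lowest.

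With Dox, the members as a group lay close to the other autosomal genes. For each pair, the median log2 change of the members was taken, with 0.5 CPM added to each value, and the median over the autosomal genes tested was subtracted. The difference was 0.05 in WT, -0.12 in C1, -0.12 in 2C2, 0.03 in C11, and 0.03 and -0.09 in replicates 1 and 2 of XistΔm6A/11C. The members were above the other genes in 3 pairs and below them in 3, and pairs of the same line fell on both sides. The mean over pairs was -0.036 ± 0.080 (SD, n = 6), less than the spread between pairs. Of the 77 members, 55 were lower with Dox in C1, 49 in 2C2, 28 in C11 and 29 in WT. In replicates 1 and 2 of XistΔm6A/11C, 35 and 44 were lower. Over all pairs, 40.3% of the members had a fitted change above 0, beside 52.9% of autosomal genes, and this difference was not tested. The large subunit had the lower median in WT, C1, 2C2 and replicate 2 of XistΔm6A/11C, and the higher one in the other pairs. This difference between the subunits was not tested. The median changes of the large subunit were 0.05, -0.15, -0.13, 0.05, 0.04 and -0.12 in the same order of pairs, and those of the small subunit were 0.06, -0.04, -0.07, 0.04, 0.02 and 0.04. A change by more than 1 on the log2 scale within a pair was seen in 2 members, both in replicate 2 of XistΔm6A/11C. This is 2.60%, beside 1.32% of autosomal genes tested and 1.75% of all genes tested. The 2 members were Mrpl34, at -1.78 on 49 counts without and 8 counts with Dox, and Mrps26, at -1.15. Both were picked out after their values were seen. Over the 6 pairs Mrpl34 had the lowest fitted change, -0.61 (SE 0.222, adjusted p = 0.0666 by edgeR), which did not pass the threshold.

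**Figure D2:**
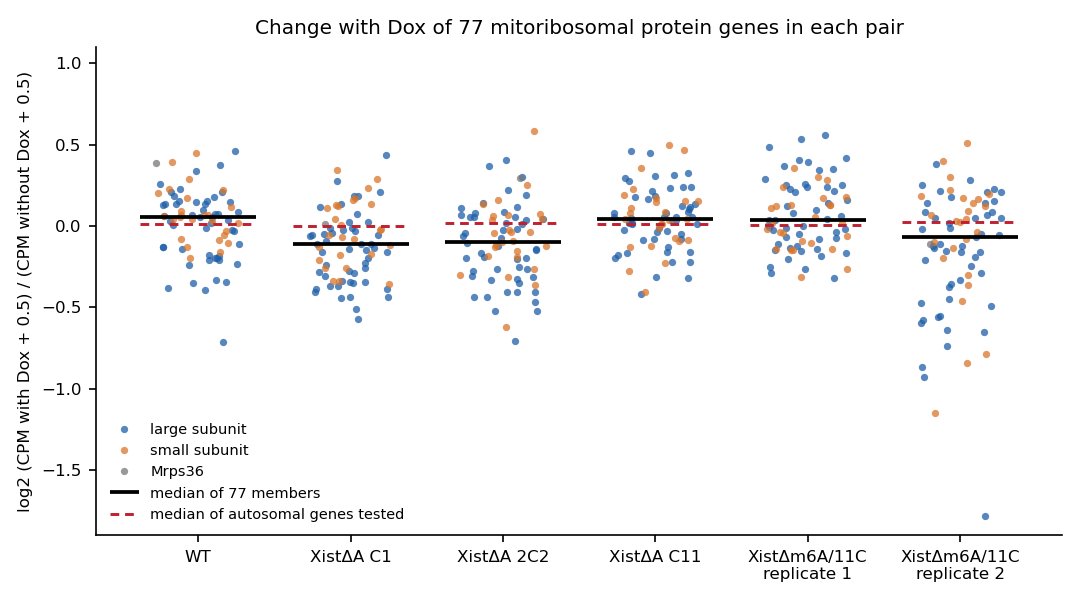
Log2 change with Dox, with 0.5 CPM added, of each of the 77 members in each of the 6 pairs. Points are genes, solid lines are the members' medians and dashed lines the medians of the autosomal genes tested. The members' median lies above the dashed line in WT, C11 and replicate 1 of XistΔm6A/11C and below it in the other pairs, and the lowest point is Mrpl34 in replicate 2 at -1.78.

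Tested gene by gene with edgeR, with the pair as a term, 8 of the 77 members passed an adjusted p of 0.05. This is 10.4% of the members, beside 17.5% of all genes tested, so that the share called among the members was not above that of all genes. The genes tested include X-linked genes, on the chromosome from which Xist is expressed, while all members are autosomal. Over the 14341 autosomal genes tested, the share called was taken only by class of gene span. At an unadjusted p under 0.05 there were 18 members, or 23.4%, beside 32.0% of all genes. Of the 8, 4 were higher with Dox and 4 lower. The 4 higher ones, Mrpl14, Mrpl23, Mrps21 and Mrps28, all encode proteins with a bacterial counterpart, from both subunits. The 4 lower ones, Mrpl38, Mrpl44, Mrpl50 and Mrps30, all encode large-subunit proteins known from mitochondria alone. No test was made of this split, and it did not hold in every fit. Genes with a bacterial counterpart were among the lower calls with DESeq2 (Mrpl34), without C11 (Mrpl11 and Mrpl34) and in XistΔA alone (Mrps14). They were also among them without replicate 1 (Mrpl18) or replicate 2 (Mrpl16) of XistΔm6A/11C. A fit of the 8 WT and XistΔA libraries alone was added after the data were seen. Its lower calls included Mrpl16, Mrpl18, Mrps14 and Mrps18c. Most genes of each class had no call, with 16 of the 20 mitochondrion-specific genes of the large subunit, 28 of the 30 large-subunit genes with a bacterial counterpart, 14 of the 16 such genes of the small subunit and all 10 mitochondrion-specific genes of the small subunit. The median fitted changes of these classes were -0.06, -0.03, -0.02 and 0.04. The changes were small. Fitted log2 fold changes of all members lay between -0.61 and 0.39, and the median absolute change was 0.10 among the members and 0.13 among all genes tested. The same direction in 6 of 6 pairs was seen upward in 5 members (6.49%, beside 10.3% of autosomal and 9.92% of all genes). It was seen downward in 2 (2.60%, beside 7.43% of autosomal and 8.76% of all genes).

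**Figure D3:**
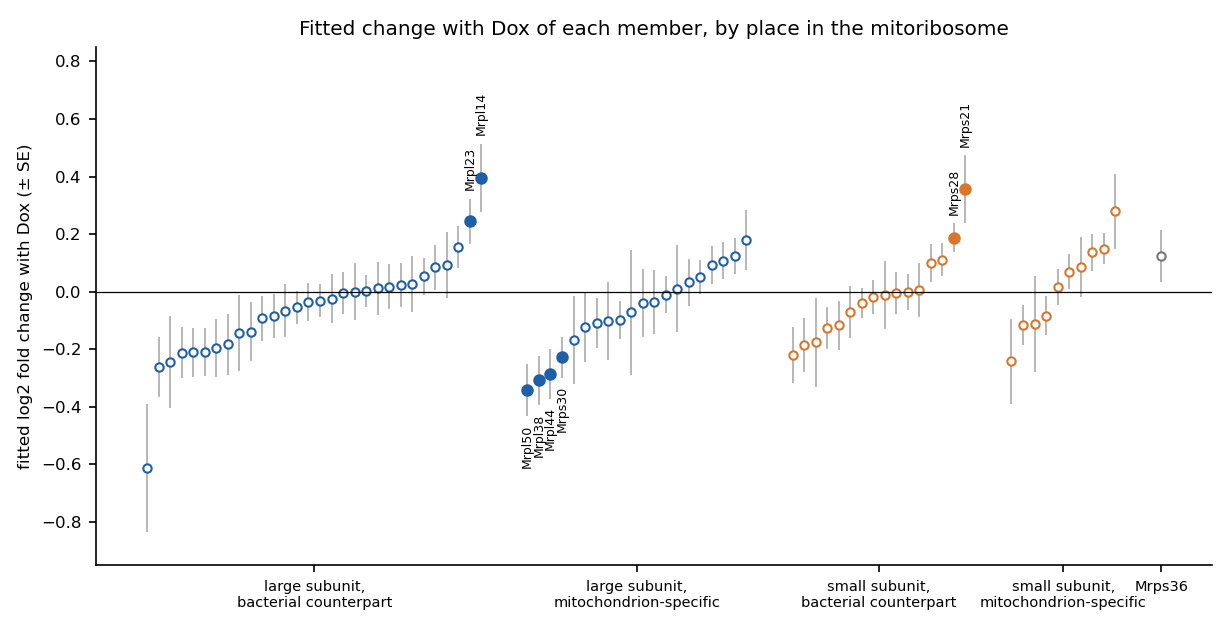
Fitted log2 fold change with Dox (edgeR, 6 pairs) of each of the 77 members, with bars of 1 SE, sorted within 5 classes. Filled points passed an adjusted p of 0.05 and are named, and open points did not. The named genes above 0 lie in the classes with a bacterial counterpart and those below 0 in the mitochondrion-specific class of the large subunit, and the lowest open point is Mrpl34 at -0.61.

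Mrps28 is the longest member and encodes a small-subunit protein related to bacterial S1. Without Dox it stood at 139 CPM in the lowest library, 151 at the median and 174 in the highest, and with Dox at 152, 181 and 189. It was higher with Dox in 6 of 6 pairs, although the groups overlapped. Its fitted log2 fold change was 0.19 (SE 0.051, adjusted p = 0.0182). Mrpl14 encodes a conserved protein at the interface between the subunits. It was at 2.20, 2.91 and 3.21 CPM without Dox and at 2.29, 3.63 and 4.97 CPM with Dox, as lowest, median and highest. The rise was found in 6 of 6 pairs, but was slight in C11 and in replicate 2 of XistΔm6A/11C, with 0.05 in each. The fitted value was 0.39 (SE 0.118, adjusted p = 0.0297). Mrpl23 encodes a protein next to the exit of the peptide tunnel. Its levels were 6.79, 8.48 and 11.9 CPM without Dox and 8.33, 9.60 and 15.3 CPM with Dox, again higher in 6 of 6 pairs, with the highest library of either state from replicate 1 of XistΔm6A/11C. The fitted value was 0.24 (SE 0.079, adjusted p = 0.0429). Mrps21, a small-subunit gene, was at 2.78, 3.52 and 5.26 CPM without Dox and 3.51, 4.91 and 5.80 CPM with Dox. It was higher in 5 of 6 pairs and lower in replicate 2 of XistΔm6A/11C, with a fitted value of 0.36 (SE 0.117, adjusted p = 0.0453).

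Mrpl38 was at 9.06 CPM in the lowest library without Dox, 12.2 at the median and 14.9 in the highest, and at 8.07, 8.91 and 14.1 CPM with Dox. It fell in 6 of 6 pairs, and replicate 1 of XistΔm6A/11C held the highest library of each state. The fitted log2 fold change was -0.31 (SE 0.084, adjusted p = 0.0191). Mrpl44 encodes a protein with an RNase III-like fold. It was at 5.30, 7.40 and 9.59 CPM without Dox and 4.33, 5.95 and 7.81 CPM with Dox, and fell in 6 of 6 pairs. The fitted value was -0.29 (SE 0.086, adjusted p = 0.0306). Mrpl50 went from 17.0, 24.4 and 31.6 CPM to 13.8, 19.6 and 22.1 CPM. It was lower in 5 of 6 pairs and higher in replicate 2 of XistΔm6A/11C, with a fitted value of -0.34 (SE 0.091, adjusted p = 0.016). Mrps30 went from 24.0, 42.4 and 52.2 CPM to 22.8, 36.9 and 38.5 CPM, with the same pair as the exception. Its lowest library of either state came from replicate 1 of XistΔm6A/11C, and the fitted value was -0.23 (SE 0.071, adjusted p = 0.0356). For all 8 genes the levels with and without Dox overlapped between libraries, and the difference lay within the pairs.

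**Figure D4:**
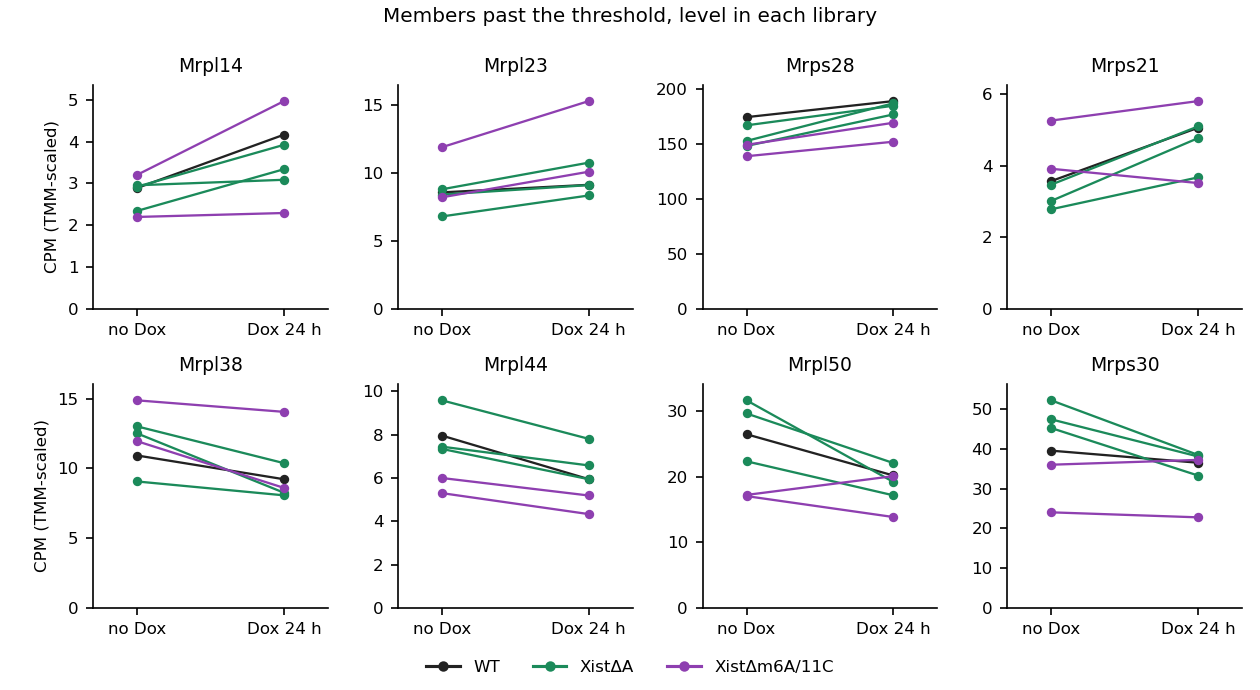
Level in CPM (TMM-scaled) of the 8 members past the threshold in each of the 12 libraries, from 0. Each line joins the library without Dox to that with 24 h of Dox of the same pair, coloured by line (WT, XistΔA, XistΔm6A/11C). The upper genes are higher with Dox and the lower genes are lower with Dox in 5 or 6 of 6 pairs. Levels with and without Dox overlap between libraries, and without Dox those of Mrps30 run from 24.0 to 52.2 CPM.

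The calls depended on the pairing and on which pairs were used. With no replicate block, that is with the line in place of the pair, edgeR called 0 members (3 at an unadjusted p under 0.05) and 0.529% of all genes. With the cell line or clone in place of the pair it also called 0 members (5 at an unadjusted p under 0.05) and 1.04% of all genes. DESeq2 with the pair as a term called 6 members and 15.5% of all genes, 1 higher (Mrps28) and 5 lower (Mrpl34, Mrpl38, Mrpl44, Mrpl50 and Mrps30). The count fell when the WT pair or that of any XistΔA clone was left out. Without 2C2 edgeR called 0 members (13 at an unadjusted p under 0.05, and 9.82% of all genes), without C1 it called 1 (9.62% of all genes), without WT 2 (10.7%) and without C11 5 (12.3%). Without replicate 1 or 2 of XistΔm6A/11C it called 7 (19.8%) and 9 (20.2%). All 8 genes lost their calls with no replicate block, and none turned its direction there or in the fits without 1 pair. With no replicate block the fitted changes were 0.40 for Mrpl14, 0.37 for Mrps21, 0.25 for Mrpl23 and 0.19 for Mrps28, and -0.33 for Mrpl50, -0.30 for Mrpl38, -0.28 for Mrpl44 and -0.22 for Mrps30.

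The lines were also tested separately within the fit of all 12 libraries. In XistΔA, 5 members passed, beside 11.9% of all genes. Mrps21 and Mrps28 were higher, at 0.54 and 0.23, and Mrpl50, Mrps14 and Mrps30 were lower, at -0.51, -0.41 and -0.40. In XistΔm6A/11C edgeR called 0 members (4 at an unadjusted p under 0.05), beside 3.58% of all genes. This does not show that the lines differ. The test of the difference between the responses of XistΔm6A/11C and XistΔA called 0 members with edgeR (7 at an unadjusted p under 0.05) and 0 with DESeq2, beside 0.777% and 0.918% of all genes. Leaving out a pair of XistΔm6A/11C leaves this line with 1 pair, so that the spread used comes from the XistΔA clones alone, as WT has 1 pair as well. The count was then 5 without replicate 1 (Mrpl34, Mrpl50, Mrpl55, Mrps26 and Mrps30), beside 7.49% of all genes, and 2 without replicate 2 (Mrpl19 and Mrpl20), beside 10.6%. Among the 8 members called over all pairs, the largest of these differences were those of Mrps21 at -0.52 (adjusted p = 0.378), Mrpl50 at 0.46 (adjusted p = 0.272) and Mrps30 at 0.38 (adjusted p = 0.189), where Mrps21 was higher with Dox in each XistΔA clone and the others lower, and replicate 2 of XistΔm6A/11C went the opposite way. In fits of fewer libraries, added after the data were seen, the 8 WT and XistΔA libraries alone gave 13 members beside 27.5% of all genes, and the 4 XistΔm6A/11C libraries alone gave 0 by edgeR (2 at an unadjusted p under 0.05) beside 1.57% of all genes. In each of these comparisons the share of members called lay below that of all genes, X-linked genes included. The share over autosomal genes alone was not taken in them.

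Short genes moved differently from long ones in these libraries, and the members are short. Among autosomal genes tested, the median fitted change was -0.09 for the 1600 genes of up to 5 kb and 0.06 for the 4184 genes over 50 kb. The 28 members of up to 5 kb had a median of -0.12, and 0 of them passed the threshold, beside 11.9% of the autosomal genes of that span. The 27 members of 5 to 10 kb had a median of -0.0048 and held 6 of the 8 called genes, beside 11.6% of the autosomal genes of that span, the 12 of 10 to 20 kb had 0.03, the 4 of 20 to 50 kb had 0.02 and the 6 over 50 kb had 0.04. This order by span was not the same in every pair. For members of up to 5 kb it was -0.27 in C1, where autosomal genes of that span had -0.21, and -0.48 in replicate 2 of XistΔm6A/11C, where they had -0.20. In replicate 1 of the same line the short members were at 0.11 and the short autosomal genes at 0.06, and in C11 they were at 0.15 and -0.00060. The part of gene span in the change of single members was not tested.

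**Figure D5:**
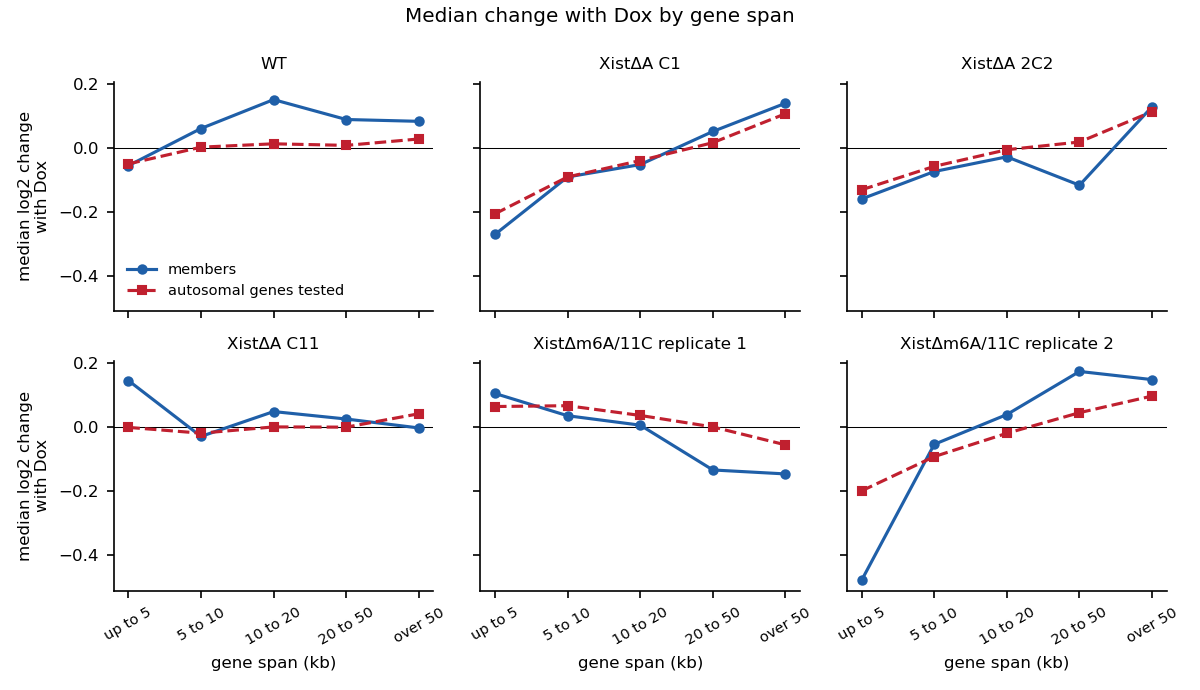
Median log2 change with Dox, with 0.5 CPM added, in 5 classes of gene span (kb) for the members and for autosomal genes tested, with 1 panel for each pair. Classes hold 28, 27, 12, 4 and 6 members. The shortest class is lowest in WT, C1, 2C2 and replicate 2 of XistΔm6A/11C, for the members and for the other genes, and for the members it is highest in C11 and in replicate 1 of XistΔm6A/11C.

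Members lay on 17 of the 19 autosomes, with 10 on chromosome 11 and 8 on chromosome 17. Between lines without Dox, the median log2 level of the members on chromosome 16, Mrpl39, Mrpl40 and Mrps6, differed by up to 0.68, and that of the 5 members on chromosome 1 by 0.61. Over all genes tested on these chromosomes it differed by 0.068 and 0.17. The order of the chromosomes rests on few genes and libraries. Mrps6 stood apart in 1 pair. Its highest level was 39.9 CPM, in replicate 2 of XistΔm6A/11C with Dox, with nearly the same level without Dox, and it was at 17.2 to 26.4 CPM in the other 10 libraries. Mrps6 encodes a small-subunit protein with a bacterial counterpart, and its annotated span shares 29139 bases with Slc5a3 on the same strand, so that its counts come from the remainder. Mrpl39 was at 28.9 to 46.3 CPM and Mrpl40 at 5.60 to 10.6 CPM over the 12 libraries, and without Dox both were lower in each XistΔm6A/11C library than in the others. With Dox none of these genes passed the threshold, with fitted changes of 0.11, 0.18 and 0.10 for Mrpl39, Mrpl40 and Mrps6 and adjusted p by edgeR of 0.266, 0.246 and 0.319. Of the members with the highest and lowest levels per kb, 4 others did not pass either, with -0.08 for Mrpl24, -0.13 for Mrps2, 0.09 for Mrps23 and 0.28 for Mrps33.

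The hybrid genome allowed counts to be split by allele. Between 52.2% and 57.2% of the members' counts in a library carried a parental assignment. The 129S share over all members was lowest in C11 without Dox, at 51.9% (95% Wilson interval 51.3 to 52.5%), and highest in replicate 2 of XistΔm6A/11C without Dox, at 54.0% (53.3 to 54.8%). These intervals cover counting error only. Over the 63 members with at least 20 allelic counts in every library, the median difference between Dox and no Dox was 0.42 ± 0.66 percentage points (SD, n = 6 pairs), less than its spread.

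Single members were far from an even share, and these were picked out after their values were seen. Mrps36 had between 5.13% (Wilson interval 1.42 to 16.9%) and 17.3% (11.1 to 26.0%) of its allelic counts from 129S in the 12 libraries. Most of its allelic counts were thus assigned to Cast in each of them, with no mapping bias corrected. Mrpl36 lay the other way, between 78.6% (60.5 to 89.8%) and 100% (92.0 to 100%), on 20 to 82 allelic counts per library. The allelic counts of Mrpl57 and Mrps17 were also mostly assigned to 129S in every library. Those of Mrpl49 and Mrps31 were mostly assigned to Cast, with 22.3% to 39.5% and 32.6% to 37.9% from 129S. Mrps26, which had only 14 allelic counts in 1 library and so is not among the 63, was at 94.6% (85.4 to 98.2%) or above in the 8 WT and XistΔA libraries, and in the 4 of XistΔm6A/11C it was between 62.5% (42.7 to 78.8%) and 76.7% (64.6 to 85.6%). Members of chromosome 11 differed between clones. Over the 8 of them with enough counts, the median 129S share was 64.7% and 67.6% in C1 and 64.9%, 66.5%, 66.3% and 70.4% in XistΔm6A/11C, and it was 44.3% to 52.4% in the other 6 libraries. It was higher with Dox in 5 of 6 pairs, all but WT, which was not tested. The same 6 libraries with the higher share also had higher levels over all 1172 genes tested on chromosome 11, with median log2 levels of 3.92 to 4.25 against 3.60 to 3.78. The members' own median log2 levels there were 3.22 to 3.74 and 3.22 to 3.51, and overlapped. Mrpl38, one of the called genes, lies on this chromosome. Its 129S share was lowest in the libraries of 2C2, at 27.9% (21.6 to 35.2%) with Dox, and highest in replicate 2 of XistΔm6A/11C with Dox, at 70.3% (60.8 to 78.3%). Mrps35 on chromosome 6 stood apart in C11, with 32.3% (29.9 to 34.7%) and 32.4% (30.1 to 34.9%) from 129S and 74.3 and 76.1 CPM without and with Dox. The other 10 libraries ran from 44.0% (41.1 to 46.9%) to 52.0% (49.0 to 55.1%) and from 41.3 to 60.1 CPM. The levels of its region were also higher there, and the 187 genes tested on chromosome 6 above 120 Mb had median log2 levels of 3.85 and 4.12 in C11 and 3.35 to 3.74 in the others. Copy number was not measured, and its part in these levels was not tested.

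Promoter sequences from RefSeq (GRCm38.p6), from 250 bases before to 50 bases after each gene's start, were held for 68 of the 77 members. Mrpl4, Mrpl13, Mrpl15, Mrpl19, Mrpl38, Mrpl54, Mrps28, Mrps34 and Mrps35 were missing. The letters of 5 motifs were searched on both strands, and in no member's window did matches of different motifs overlap. CCGGAAG, the core bound by ETS factors such as GABPA, was found in the promoters of 25 members, or 36.8%, beside 9.93% of all 27025 genes in the table and 18.1% of the 11115 that were tested here. TGCGCA, the repeated unit of the NRF1 site, was found in 20 members, or 29.4%, beside 8.79% and 15.1%. AAGATGGC, the letters of the YY1 site, was found in 12 members, or 17.6%, beside 3.19% and 4.73%. The E-box CACGTG was found in 5 members, or 7.35%, beside 8.09% and 11.5%, and TATAAA in 5, or 7.35%, beside 15.7% and 8.98%. The median fitted change with Dox was -0.04 for members with CCGGAAG and -0.02 for those without, and -0.03 for members with and without TGCGCA. For AAGATGGC it was 0.0032 with and -0.04 without, and for the 5 members each with CACGTG and TATAAA it was -0.18 and -0.07, beside -0.02 for members without the motif in each case. A match is only a match of letters.

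The stretches printed here lie outside the gene spans of the files and hold no exon of the GENCODE annotation. Capitals mark CCGGAAG and TGCGCA on either strand. Those of Mrpl17 and Mrps18a are shown because they hold both motifs. The stretch of Mrpl22 also holds both and is not shown.
Mrpl17, chr7:105811100-105811337 (- strand): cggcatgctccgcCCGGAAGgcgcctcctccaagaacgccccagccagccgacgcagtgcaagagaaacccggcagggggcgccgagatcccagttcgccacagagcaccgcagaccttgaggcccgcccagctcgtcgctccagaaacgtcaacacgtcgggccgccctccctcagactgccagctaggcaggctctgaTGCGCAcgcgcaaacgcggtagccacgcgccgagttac
Mrps18a, chr17:46110754-46110985 (+ strand): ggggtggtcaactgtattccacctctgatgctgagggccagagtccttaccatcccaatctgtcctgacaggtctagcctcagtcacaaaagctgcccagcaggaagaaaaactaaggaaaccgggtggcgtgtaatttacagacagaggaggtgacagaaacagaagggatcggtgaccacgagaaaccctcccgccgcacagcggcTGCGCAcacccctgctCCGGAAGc
Those of Mrpl23, Mrpl44 and Mrpl50 are shown because these genes passed the threshold with Dox, the first upward and the others downward. The stretch of Mrpl23 holds TGCGCA, and that of Mrpl44 ends before the TGCGCA in its window. Of the other called genes, Mrps21 has CCGGAAG in its window but outside its exon-free stretch and is not shown, and neither are Mrpl14 and Mrps30, whose exon-free stretches were too short.
Mrpl23, chr7:142532831-142533011 (+ strand): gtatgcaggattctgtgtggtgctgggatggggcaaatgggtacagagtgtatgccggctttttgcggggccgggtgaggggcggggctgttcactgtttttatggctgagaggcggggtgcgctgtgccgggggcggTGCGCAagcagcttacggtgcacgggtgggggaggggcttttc
Mrpl44, chr1:79775768-79775959 (+ strand): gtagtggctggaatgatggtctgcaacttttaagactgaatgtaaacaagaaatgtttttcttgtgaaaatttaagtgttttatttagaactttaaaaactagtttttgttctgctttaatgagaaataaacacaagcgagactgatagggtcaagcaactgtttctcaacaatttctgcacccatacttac
Mrpl50, chr4:49521094-49521175 (- strand): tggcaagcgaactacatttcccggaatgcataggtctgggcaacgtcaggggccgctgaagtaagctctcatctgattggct

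The rest of the mitochondrial translation apparatus was read from 4 lists of other genes with 72 genes tested, of which 10 passed the threshold, 9 higher and 1 lower with Dox. This is 13.9%, beside 17.5% of all genes, among which 1219 were higher and 1389 lower. Of 21 translation factors and activators, 3 were higher, or 14.3%. Taco1, an activator of the translation of a cytochrome oxidase subunit, was at 3.47, 3.80 and 19.2 CPM without Dox and 3.68, 4.97 and 48.8 CPM with Dox, as lowest, median and highest. It was higher in 6 of 6 pairs, at 0.68 (SE 0.142, adjusted p = 0.0042 by edgeR). The 4 XistΔm6A/11C libraries, at 15.5 to 48.8 CPM, lay far above the other 8, at 3.47 to 5.06 CPM, in either state. The fitted change of Taco1 was 0.31 in XistΔA and 1.15 in XistΔm6A/11C. This difference of 0.85 did not pass the threshold (adjusted p = 0.0704 by edgeR). Mtif2, the initiation factor, and Mss51 had 0.18 and 0.20. Of 18 genes in the list of aminoacyl-tRNA synthetases, 4 were higher and 1 lower. This is 27.8%, above the 17.5% of all genes, which was not tested. Nars2, for asparagine, had 0.29, Ears2, for glutamate, 0.26 and Rars2, for arginine, 0.18, while Ppa2, a pyrophosphatase that removes their by-product, had 0.19 and Mars2, for methionine, had -0.27. Of 27 assembly genes, 2 were higher, or 7.41%. These were Tfb1m and Mettl15, which methylate the small-subunit RNA, at 0.31 and 0.26. Of 6 mitoribosomal proteins with other symbols, such as Dap3 and Ptcd3, edgeR called 0 (0 at an unadjusted p under 0.05). Among the 72 genes, edgeR called 0 with no replicate block (7 at an unadjusted p under 0.05) and DESeq2 with the pair as a term called 8. Without WT, C1 or 2C2 the count by edgeR was 4 and without C11 5, and without replicate 1 or 2 of XistΔm6A/11C it was 14 and 13.

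Genes that stand around mitochondrial translation were read in the same fit. Of 30 genes of mitochondrial stress and the integrated stress response, 2 were higher and 4 lower. Aldh18a1 of proline synthesis had 0.25 and Sesn2 0.23, while Hspd1 and Hspa9, the mitochondrial chaperones, had -0.26 and -0.20, the protease gene Lonp1 had -0.23 and Ddit3, which encodes CHOP, had -0.33. Of 19 regulators of mitochondrial gene expression, 4 were lower. Gabpa, which encodes the DNA-binding subunit of the factor that recognises CCGGAAG, was at 193, 275 and 356 CPM without Dox and 149, 237 and 277 CPM with Dox. It fell in 6 of 6 pairs, at -0.24 (SE 0.059, adjusted p = 0.0114 by edgeR). Mycn had -0.31, Myc -0.46 and Tfb2m, a factor of mitochondrial transcription, -0.23. Of 34 nuclear genes of respiratory complexes III to V, Cox7c and Atp5g3 were lower, at -0.25 each. These lists gave 20.0%, 21.1% and 5.88% called, beside 17.5% of all genes.

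Markers of the cell types that the dishes could hold were read as well. Embryonic stem cell markers summed to 1759 to 2401 CPM over the 12 libraries, led by Zfp42. Of the 11 tested, 5 passed, or 45.5% beside 17.5% of all genes. Zfp42 was higher with Dox, at 0.36, and Tdgf1, Klf2, Dppa5a and Klf4 were lower, at -0.42, -0.41, -0.40 and -0.26. Pou5f1 was at 33.5 to 74.1 CPM and Nanog at 43.1 to 95.7 CPM, and neither passed. Sox2 had 0 counts in every library, and it lies within Sox2ot on the same strand, where reads that match both genes were not counted. Feeder fibroblast markers summed to 44.6 to 76.0 CPM, led by Fbn1, with 1 of 14 tested, or 7.14%, lower with Dox (Thy1, -0.46). Early differentiation markers summed to 52.0 to 115 CPM, led by Otx2, with 1 of 9 tested, or 11.1%, lower (Otx2, -0.26). The XistΔm6A/11C libraries had the lowest feeder sums, at 44.6 to 55.6 CPM, and the highest early differentiation sums, at 74.5 to 115 CPM, in either state. The part of these markers in the members' values was not tested.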

How the data were processed

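ChrRNA-seq libraries of iXist-ChrX mESCs, with and without Dox, were read as deposited. The authors deposited counts of read pairs on genes over whole gene spans of mm10, by strand and without normalization, for all pairs and for each parental genome. Per the submitters' processing notes these came from Bowtie2 2.3.2, STAR 2.4.2a and featureCounts 1.5.2. Read pairs that matched 2 genes on a strand were not counted. Of the parental genomes, 129S was taken to be the one from which Xist is read, so that the 129S share of Xist is no separate check of which genome is which. No mapping bias was corrected.

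Counts were fitted with edgeR 4.0.16 (quasi-likelihood, TMM, filterByExpr with a minimum count of 10) in R 4.3.3 over 12 libraries with pair and Dox as terms, and p was adjusted by Benjamini-Hochberg over 14929 genes with a threshold of 0.05. A second fit gave each line its own Dox term. CPM are TMM-scaled. Alternatives were DESeq2 1.42.0, other scaling, no count filter, other blocks and leaving out each pair. Other values were computed in Python 3.11.15 and scipy 1.17.1. The fit was tested on simulated data.

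Pairs come from the clone names and replicate numbers of the labels. The data of C11 name the deletion differently from the other XistΔA clones, and whether it is the same deletion is not known. The paper tells a precise A-repeat deletion from a larger one of earlier work, and the labels, which call all clones XistDelA, do not say which clone has which. Deviations from group means correlated within pairs at r = 0.565 to 0.762 across 14929 genes, which are not independent replicates. WT has 1 pair and no such value, and the 2 pairs of XistΔm6A/11C share 1 value by construction. Chi-square per degree of freedom between replicates was 28.2 to 106, so that no library was counted more than once. The paper calls its replicas biological, but the labels do not say that those of XistΔm6A/11C were separate cultures, and without that p-values measure only the spread between these samples. Library totals were 18893447 to 36007145 counts, and Wilson intervals at 95% cover counting error only.

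Members and lists were chosen with earlier results of these data known. Members were named if past the threshold with the same direction in 6 pairs (up to 12 in each direction), or, with fewer than 6 of these, among the 8 smallest p, if among the 3 highest or lowest per kb, or if on the chromosome whose members differed most between lines without Dox. Up to 3 called genes of each list with the smallest p and all marker lists were named, and the remaining called genes were named after their values were seen.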

Additional observations from a re-analysis of the deposited data

Results flagged for a closer look

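The median log2 change of the translation factors with Dox was 0.20 in replicate 2 of XistΔm6A/11C, and 0.0012 to 0.07 in the other pairs, which set this pair far from the others. Among 26 sets of values over 6 pairs, 1 stood apart in this way, and chance gives about 1 in 20. Stc2, a gene of the integrated stress response list that encodes a secreted glycoprotein, responded differently to Dox in XistΔm6A/11C and XistΔA, with a difference of -0.72 (adjusted p = 0.0347 by edgeR). With no replicate block edgeR called 0 genes for this difference, Stc2 included. Its fitted change was 0.34 in XistΔA and -0.38 in XistΔm6A/11C, and it stood at 26.9 to 103 CPM in the 4 XistΔm6A/11C libraries and at 8.22 to 23.9 CPM in the other 8. It was not called in the fit over all pairs, at 0.04 (adjusted p = 0.82).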

How the results depend on the processing

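The 8 members called, 4 higher and 4 lower, became 7 with DESeq2 size factors, 7 with library totals, 9 with no count filter and 6 with the DESeq2 test. The count was 0 with no replicate block (3 at an unadjusted p under 0.05) and 0 with the cell line as block (5), both by edgeR, and 0 to 9 when 1 pair was left out, with 0 without 2C2, 1 without C1, 2 without WT and 5 without C11. In fits added after the data were seen it was 13 in the 8 WT and XistΔA libraries alone and 0 in the 4 of XistΔm6A/11C (2 at an unadjusted p under 0.05). The 10 called genes of the other translation lists became 0 with no replicate block (7 at an unadjusted p under 0.05), 0 with the cell line as block (9), and 4 to 14 when 1 pair was left out. The 0 members whose response differed between lines by edgeR (7 at an unadjusted p under 0.05) stayed 0 with DESeq2 (2), DESeq2 size factors, library totals, no count filter and no replicate block, and ran from 0 to 5 when 1 pair was left out. The members' median change of -0.036 lay between -0.053 and -0.020 under all alternatives run, within 1 SD, and Xist between 4.15 and 4.19, past the threshold. Of the 8 called members, 0 kept their call with no replicate block, 7 with DESeq2 size factors and 6 with library totals, and none reversed; the other 7 named by the same rules had no call in these 3 fits or without any pair, but Mrps6 was called in the 8 WT and XistΔA libraries alone. Mrpl34, named after its values were seen, was called with the DESeq2 test and without C11. The cause of these differences was not tested. Fewer pairs leave fewer degrees of freedom, and members at a few CPM such as Mrpl14 and Mrpl34 rest on few counts.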
